A study of Mus musculus with 6 samples.

Results

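The small leucine-rich proteoglycans examined here were the 10 genes Dcn, Lum, Bgn, Fmod, Ogn, Aspn, Prelp, Omd, Kera and Podn, taken by symbol from a deposited table of 41388 genes. All 10 were found, each as a single row, and 9 had enough counts to be tested. Kera did not. The table came from primary fibro-adipogenic progenitors, mesenchymal cells of muscle able to form fibroblasts or fat cells. The cells were from muscle of male wild-type mice and were cultured in serum with basic fibroblast growth factor, labelled hFGF. In each group there were 3 libraries of polyadenylated RNA. The vehicle group received vehicle, and the PGE2 group received 500 nM prostaglandin E2, with a dose on each of 2 consecutive days. No mouse age or strain is given in the labels, nor whether each library had its own mouse or culture; the p-values therefore reflect library-to-library spread that may be technical.

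Small leucine-rich proteoglycans are secreted matrix proteins built around leucine-rich repeats that curve into a solenoid and bind collagen. Decorin, lumican, fibromodulin and their relatives sit on collagen fibrils and set how far fibrils grow sideways and fuse. Several also bind growth factors, above all TGF-beta, and soluble biglycan and decorin are ligands of innate immune and growth factor receptors. In muscle the connective tissue cells, including fibro-adipogenic progenitors, are major makers of them.

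Library totals were between 21006044 counts, in vehicle library 2, and 52730962 counts, in PGE2 library 2. Levels are CPM, counts scaled to library size with factors from the trimmed mean of M values (TMM). A level of 3 counts corresponded to between 0.0569 and 0.143 CPM. Pdgfra, the receptor that defines fibro-adipogenic progenitors, was between 1120 and 1460 CPM, while Pi16, the lowest of the 8 progenitor markers, had means of 6.56 CPM in vehicle and 12.8 CPM in PGE2 libraries. Among markers of other cells, Ptprc (1 of 4 leukocyte markers), Cldn5 (1 of 5 endothelial markers) and Sox10 (1 of 5 Schwann cell markers) were at 0 counts in all 6 libraries, but others of these lists were present, such as Tek at means of 28.4 and 20.5 CPM, Cd14 at 5.96 and 8.1 CPM and S100b at 4.32 and 2.74 CPM. Libraries with the same replicate number deviated from their group means together, at correlations of 0.621, 0.169 and 0.422 for numbers 1 to 3, so results are given both without pairing and with the replicate number as a block, called the paired fit.

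Biglycan dominated the family. Per kilobase of the longest annotated transcript, Bgn stood at 1960 ± 61.4 CPM in vehicle and 2060 ± 148 CPM in PGE2 libraries (SD, n = 3 each). On the same scale osteoglycin (Ogn) was at 147 ± 48.5 and 148 ± 45.5, decorin (Dcn) at 76.2 ± 29.5 and 85.7 ± 29.6, asporin (Aspn) at 20.2 ± 6.9 and 13.1 ± 3.51, and podocan (Podn) at 9.58 ± 5.05 and 10.6 ± 5.72 CPM per kilobase. This order, from Bgn down through Podn to the member below it, held in each of the 6 libraries. Prolargin (Prelp, 4.74 ± 1.07 in vehicle), osteomodulin (Omd, 3.53 ± 1.12) and lumican (Lum, 3.39 ± 2.09) lay within their spread of each other. Prelp exceeded Omd in each vehicle library and lay below it in each PGE2 library, at PGE2 means of 3.43 ± 0.746 and 3.9 ± 0.915. Fibromodulin (Fmod) came next at 1.26 ± 0.843 CPM per kilobase in vehicle. The length used was that of the longest of several annotated transcripts for most members, so levels between members are approximate. Bgn took between 82.6% and 90.4% of all counts of the 10 genes, and the 10 together took between 0.57% and 0.68% of a library's counts.

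Kera, which encodes keratocan, the corneal member of the family, had between 1 and 6 counts per library. These counts lie near the level of 3 counts, and no fold was computed.

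Without pairing, none of the 9 tested members passed the test between PGE2 and vehicle (edgeR quasi-likelihood, Benjamini-Hochberg over 15186 genes), where 0.342% of all genes did. At an unadjusted p below 0.05 the edgeR count was also 0, beside 3049 of the 15186 genes. DESeq2 had 3 members at that unadjusted level, for which its share of all genes was not computed. After adjustment DESeq2 had 0 members, where it called 6.04% of all genes. In the paired fit Aspn, Prelp and Lum fell and none rose, so 3 of 9 members passed in the downward direction, against 7.51% of all genes lower and 6.91% higher. The median log2 fold change of the 9 was 0.0229 in the paired fit, beside values of -0.595, -0.457 and -0.659 for those that fell. The groups overlapped in CPM for all 9 members, while 25.9% of all tested genes had groups that did not overlap.

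Asporin is a fibril-binding member with an aspartate-rich start and no glycosaminoglycan chain, and in human cartilage cells it is known to inhibit TGF-beta. Aspn was at 28.6, 54.4 and 58.1 CPM in vehicle libraries 1 to 3 and at 23, 29.1 and 39.2 CPM in PGE2 libraries 1 to 3. The PGE2 library was lower than the vehicle library of the same number each time, with log2 differences of -0.31, -0.901 and -0.569 for numbers 1 to 3. Vehicle library 1 lay inside the PGE2 range, which is where the groups overlapped. The paired fit gave a log2 fold change of -0.60 ± 0.106 (SE), with an edgeR adjusted p of 0.00568. Without pairing it was -0.63 ± 0.309, with an edgeR adjusted p of 0.314. The call rests on the pairing of numbers, as do all calls of members here, and a matching that swaps numbers 2 and 3 would meet the same limit on correlations, at 0.253 and 0.145. Under that swap too each PGE2 library of Aspn was lower than its vehicle library. Leaving out number 1, 2 or 3 from the paired fit kept Aspn past the threshold, at edgeR adjusted p of 2.33e-05, 0.00933 and 0.0497. With so few libraries left, these p-values lean heavily on a spread estimated from all genes. The fit without number 3, where Aspn only just passed, called 5097 genes in all.

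Prolargin, a member with a basic amino terminus that binds heparan sulfate as well as collagen, went the same way. Prelp was at 12.7, 19.9 and 18.8 CPM in vehicle libraries 1 to 3 and at 9.71, 12.4 and 15.1 CPM in PGE2 libraries 1 to 3. The lowest vehicle library lay between the PGE2 libraries. Its paired log2 fold change was -0.46 ± 0.103, with an edgeR adjusted p of 0.0175. Without number 2 it was -0.34 with an edgeR adjusted p of 0.146, so the call rests on that number. With numbers 2 and 3 swapped, each PGE2 library was again the lower one.

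Lumican carries keratan sulfate in cornea and binds fibrillar collagen. Lum was at 5.12, 5.58 and 14.2 CPM in vehicle libraries 1 to 3 and at 4.01, 4.32 and 6.34 CPM in PGE2 libraries 1 to 3. Vehicle library 3 stood far above the other five libraries, and PGE2 library 3 exceeded vehicle libraries 1 and 2. The paired log2 fold change was -0.66 ± 0.169, with an edgeR adjusted p of 0.0289. Without number 3 it was -0.37 and no longer passed, at an edgeR adjusted p of 0.111. Without pairing it was -0.78 with all libraries and -0.14 without vehicle library 3. With numbers 2 and 3 swapped, Lum was not lower in every pair, since PGE2 library 3 lay above vehicle library 2.

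**Figure D1:**
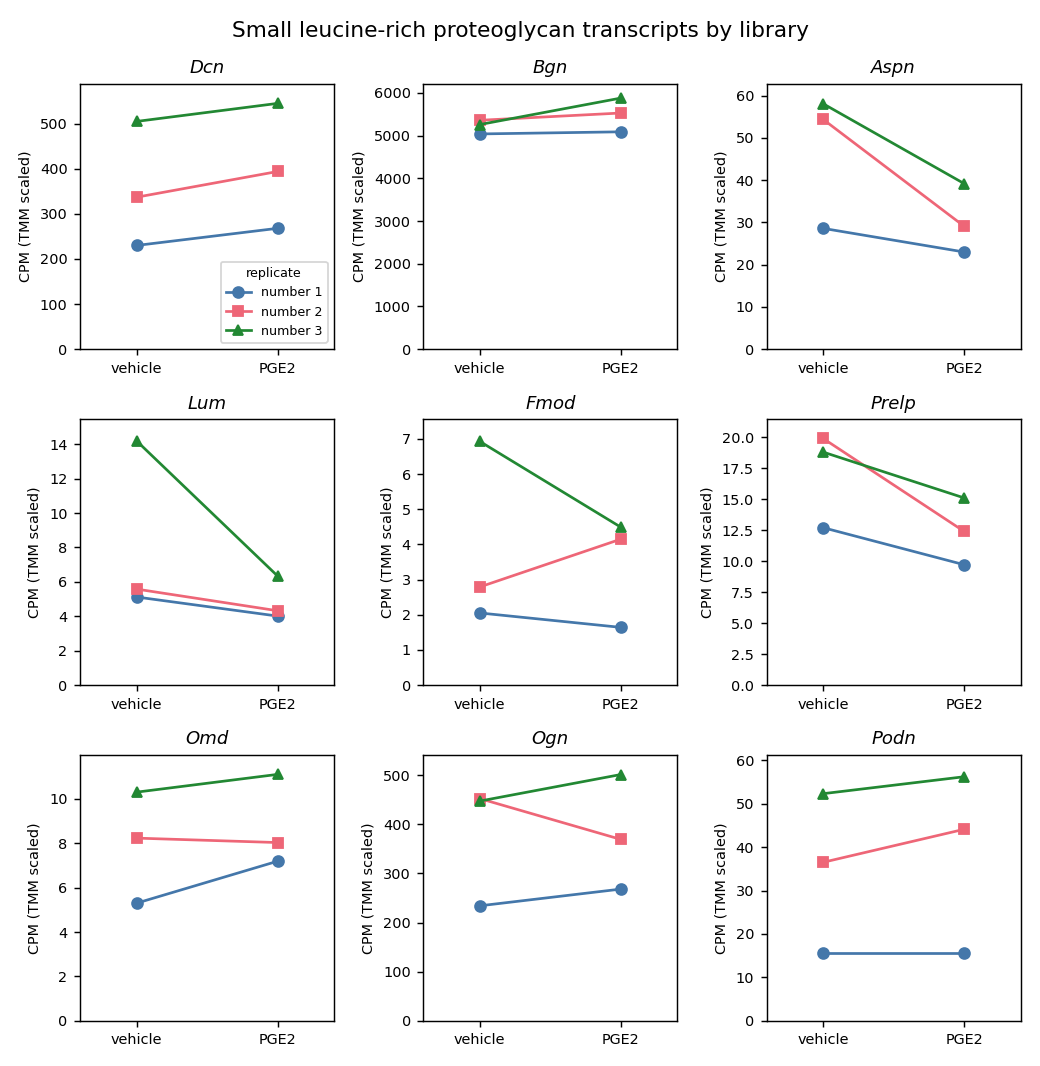
Each panel plots the CPM (TMM scaled, linear axis from 0) of a tested member in vehicle and PGE2 libraries, and lines join libraries with the same replicate number. Aspn, Prelp and Lum slope down for all 3 numbers. Dcn, Podn, Aspn, Lum, Fmod and Omd keep the order of the numbers in both groups. For Dcn the levels run from 230 to 505 CPM in vehicle and 268 to 545 CPM in PGE2.

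Decorin, the collagen-binding proteoglycan that also sequesters TGF-beta, was at 230, 337 and 505 CPM in vehicle libraries 1 to 3 and at 268, 394 and 545 CPM in PGE2 libraries 1 to 3. It was higher with PGE2 for all 3 numbers, by 0.219, 0.225 and 0.11 on the log2 scale. The paired log2 fold change of 0.18 ± 0.0754 did not pass (edgeR adjusted p = 0.127, 95% interval 0.0173 to 0.351). Leaving out number 3 gave a paired value of 0.21 that passed, at an edgeR adjusted p of 0.00619, where 5097 genes were called. Without number 1 or 2 Dcn did not pass, at edgeR adjusted p of 0.474 and 0.589. With all libraries and a correction for transcript length Dcn was at 0.25 ± 0.0638 and passed, at an edgeR adjusted p of 0.0148. The correction was made because fold changes followed transcript length across genes (rank correlation -0.41 over 15098 genes, which are not independent). The longest annotated Dcn transcript, at 4.69 kilobases, is longer than the median of 3.2. Dcn has 5 annotated transcripts, and which of them these cells express was not examined, so its corrected value rests on that length. Under the same correction Aspn, Prelp and Lum passed again, at -0.67, -0.45 and -0.73, so 4 of 9 members passed, 3 lower and 1 higher, beside 7.97% of all genes lower and 8.82% higher.

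Biglycan, which carries chondroitin or dermatan sulfate chains and is closely related to decorin, varied least. Bgn was at 5040, 5360 and 5260 CPM in vehicle libraries 1 to 3 and at 5090, 5530 and 5880 CPM in PGE2 libraries 1 to 3, and its highest library was 1.17 times its lowest. The paired log2 fold change was 0.07 ± 0.1, with a 95% interval from -0.149 to 0.295 and an edgeR adjusted p of 0.659. The interval leaves room for changes of that size in either direction.

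Osteoglycin, also called mimecan, was at 234, 452 and 447 CPM in vehicle libraries 1 to 3 and at 268, 369 and 501 CPM in PGE2 libraries 1 to 3. Number 2 went down and the others up, and the paired log2 fold change was 0.02 ± 0.102 (95% interval -0.202 to 0.248). Osteomodulin, a keratan sulfate proteoglycan first known from bone, was at 5.3, 8.23 and 10.3 CPM in vehicle libraries 1 to 3 and at 7.19, 8.03 and 11.1 CPM in PGE2 libraries 1 to 3 (0.17 ± 0.123, 95% interval -0.0984 to 0.447). Neither passed the paired test, with edgeR adjusted p of 0.902 and 0.369.

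Fibromodulin, which guides collagen cross-linking in tendon, was at 2.05, 2.79 and 6.93 CPM in vehicle libraries 1 to 3 and at 1.64, 4.15 and 4.49 CPM in PGE2 libraries 1 to 3. It was higher with PGE2 for number 2 and lower for numbers 1 and 3. Its interval was the widest of the tested members in the paired fit, from -0.648 to 0.316 on the log2 scale. Podocan was at 15.7, 36.5 and 52.3 CPM in vehicle libraries 1 to 3 and at 15.7, 44.1 and 56.2 CPM in PGE2 libraries 1 to 3. Its paired log2 fold change was 0.13 ± 0.0826, with an edgeR adjusted p of 0.325.

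**Figure D2:**
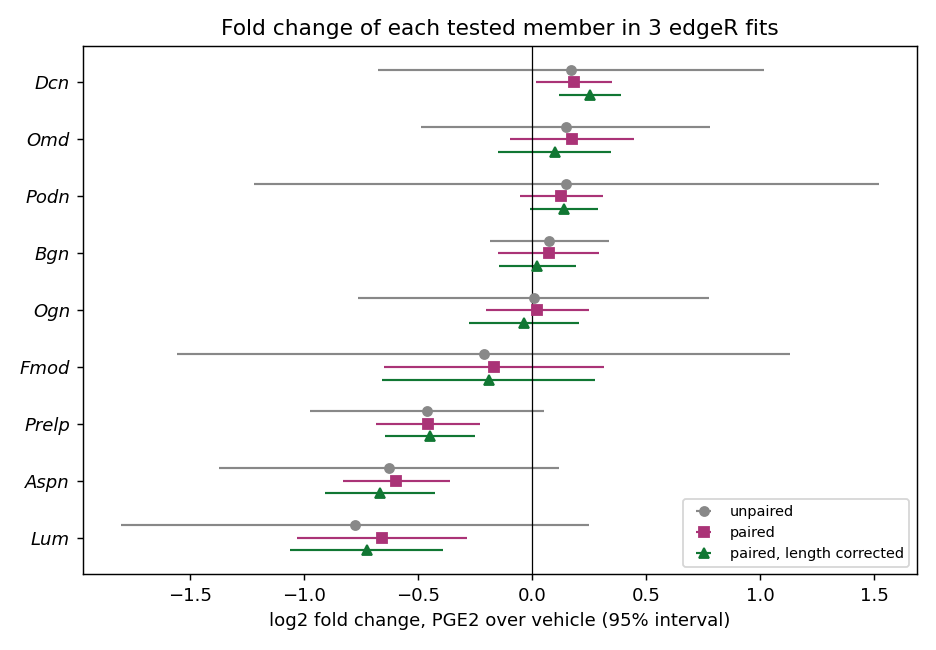
Points are log2 fold changes of PGE2 over vehicle and bars are 95% intervals, for the fit without pairing, the paired fit and the paired fit with length correction. All 9 unpaired intervals cross 0, while those of Aspn, Prelp and Lum lie below 0 in both paired fits and that of Dcn lies above 0, from 0.0173 to 0.351 in the paired fit, where its adjusted p did not pass.

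For all 9 tested members more of the spread lay between replicate numbers than between PGE2 and vehicle. There were more numbers than groups, so the part between numbers has more degrees of freedom and tends to be larger without any effect. The share of all genes that meet the same condition was not computed. In the paired fit 8 of 9 members, all but Bgn, passed the test for the replicate number, beside 10.7% of all genes, or 17.3% with the length correction, where 8 members passed again. This test was chosen after the values were seen, and the numbers were treated as pairs because libraries deviated together, so it is not independent of that choice. Podn had 98.8% of its sum of squares in log2 CPM between replicate numbers and 0.665% between groups. Dcn had 95.5% and 4.2%, and Ogn 92.3% and 0.0757%. Aspn and Prelp had 57.8% and 54.1% between numbers and 36.2% and 40.8% between groups. The medians of all tested genes were 38.6% between numbers and 28.9% between groups.

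**Figure D3:**
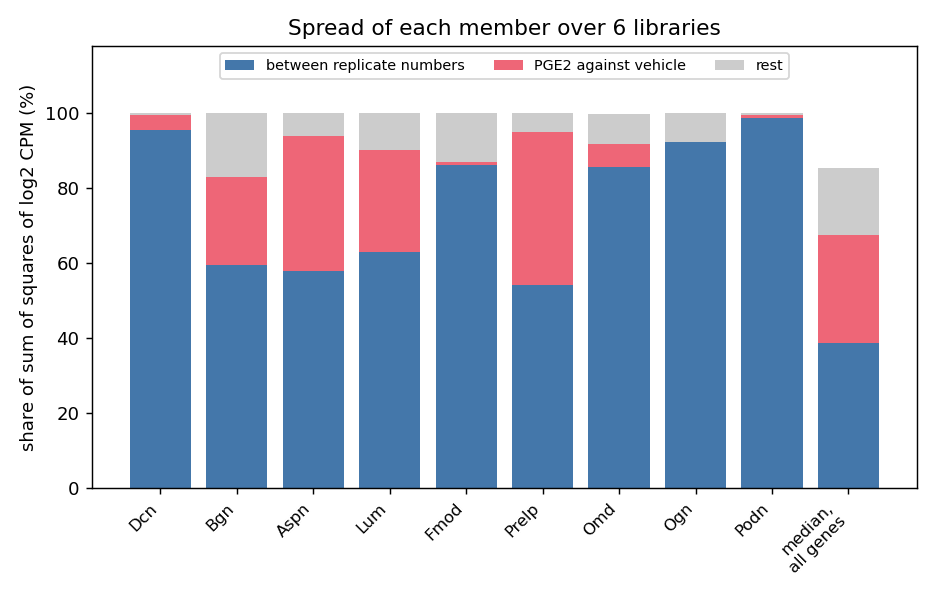
Bars divide the sum of squares of log2 CPM over the 6 libraries into the part between replicate numbers, the part between PGE2 and vehicle and the rest, in percent; the last bar shows the median of each part over all genes, so it need not add up to 100. Podn, Dcn and Ogn are almost wholly between numbers, and Prelp has the largest part between groups, at 40.8%.

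Within each group, the library of number 1 was the lowest for all 9 tested members. For what share of all genes this held was not computed, so it is not shown to be particular to the members. Without Bgn, the members summed to 533, 917 and 1110 CPM in vehicle libraries 1 to 3 and to 597, 864 and 1180 CPM in PGE2 libraries 1 to 3. The 10 myogenic markers ran the other way, summing to 226, 74.3 and 49.2 CPM in vehicle and to 153, 23 and 23.4 CPM in PGE2 libraries 1 to 3. The 8 progenitor markers, a sum led by Col1a1, were at 4920, 6280 and 7190 CPM in vehicle and at 5000, 6700 and 9250 CPM in PGE2 libraries 1 to 3. Fewer cells of a type and less RNA per cell cannot be told apart in such bulk libraries, and the part of either list in the members' levels was not tested.

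Summed levels of other marker lists are given beside these results, with the members of each list that passed the paired fit. The 6 bone and cartilage markers summed to between 80 and 85 CPM in vehicle and between 59.7 and 66.6 CPM in PGE2 libraries, with Sox9 and Col2a1 lower. The 5 Schwann cell markers summed to between 6.91 and 8.09 and between 4.24 and 5.1 CPM, with S100b and Cdh19 lower. Sums of 3 further lists overlapped between groups and were lower with PGE2 for each number. These were the 7 pericyte markers, at 73.8 to 122 and 58 to 87.8 CPM (Rgs5, Cspg4 and Notch3 lower, and Kcnj8 above its vehicle library for each number without passing), the 5 endothelial markers, at 20.6 to 45.8 and 18.6 to 32.5 CPM (Tek lower), and the 6 tendon markers, led by Egr1, at 42.1 to 88.6 and 41.5 to 79.5 CPM (Thbs4 lower). The tendon marker Tnmd went the other way, above its vehicle library for each number without passing. The 4 leukocyte markers in the table summed to 8.52 to 9.1 and 11.5 to 12.3 CPM, with Csf1r and Cd14 higher, Cd68 not past the threshold and Ptprc at 0. All 5 adipocyte markers passed, Pparg (-0.30), Adipoq (-1.12), Plin1 (-0.58) and Cfd (-1.50) lower and Fabp4 (0.38) higher, and they summed to 59.2 to 105 and 52.4 to 93.5 CPM. Of the 8 progenitor markers Thy1 (0.73), Ly6a (0.62) and Pi16 (0.98) rose and Cd34 (-0.59) fell, and of the 10 myogenic markers 6 of 7 tested fell. With the length correction added to the paired fit, 3 myogenic and 1 pericyte marker were lower and 1 leukocyte marker was higher. The counts for the other marker lists stayed as they were. The part of these cells in the fall of Aspn, Prelp and Lum was not tested.

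Most members lie in small clusters in the genome (mm10, with gene positions from GENCODE for GRCm38, the same assembly). On chromosome 13 the cluster runs Ecm2, Aspn, Omd and Ogn on 1 strand, with gaps of 11.7, 14.9 and 15.2 kilobases and no coding gene in between. Aspn spans 49544443 to 49567565, Omd 49582462 to 49592822 and Ogn 49608046 to 49624501. On chromosome 10, Dcn (97479609 to 97518143), Lum (97565128 to 97572703), Kera (97606879 to 97613692) and Epyc follow each other, also on 1 strand. On chromosome 1, Prelp (133910304 to 133921414) lies 115.8 kilobases from Fmod (134037254 to 134048277), on the other strand. Bgn is on chromosome X at 73483602 to 73495933 and Podn on chromosome 4 at 108014791 to 108096445.

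The chromosome 13 cluster lies within the gene Cenpp, which runs on the other strand, and the counting strand is not given in the sources used here. Cenpp itself had between 71 and 234 counts, against 1070 to 2516 for Aspn and 174 to 444 for Omd, so reads of Cenpp could weigh in Omd. The annotated span of Podn overlaps Scp2 on the same strand, which had between 3139 and 9853 counts, and its reads may be shared.

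Ratios between neighbours in a cluster were compared next, a choice made after the values were seen. Counts of 2 genes in the same library give a ratio that library scaling cannot change. Aspn had 12.2, 12 and 13 counts for every 100 of Ogn in vehicle libraries 1 to 3 and 8.6, 7.9 and 7.82 in PGE2 libraries 1 to 3. The groups were well apart, although both genes varied by more than 2-fold between libraries; the difference was -0.62 on the log2 scale, and the exact two-sided permutation test gave p = 0.1, the smallest that 3 against 3 allows. Lum had 2.22, 1.66 and 2.81 counts per 100 of Dcn in vehicle and 1.49, 1.1 and 1.16 in PGE2 libraries 1 to 3, again with no overlap. Omd per 100 Ogn counts overlapped, at 2.27, 1.82 and 2.3 and at 2.68, 2.18 and 2.23. So did Prelp per 100 Fmod counts, at 618, 712 and 271 and at 593, 298 and 338.

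All 36 ratios between tested members were computed, and 8 had groups that did not overlap (each with exact permutation p = 0.1, 0.45 after Benjamini-Hochberg adjustment over the 36). Each of the 8 set Aspn, Lum or Prelp against another member, out of 18 such ratios, while 0 of 15 ratios without these genes and 0 of 3 among them did so. Since these genes were singled out by the same libraries, the count describes them and is no further test. Ratios to Bgn were not among the 8. Aspn per 100 Bgn counts was 0.568, 1.01 and 1.1 in vehicle and 0.453, 0.526 and 0.666 in PGE2 libraries 1 to 3, with vehicle library 1 inside the PGE2 range.

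**Figure D4:**
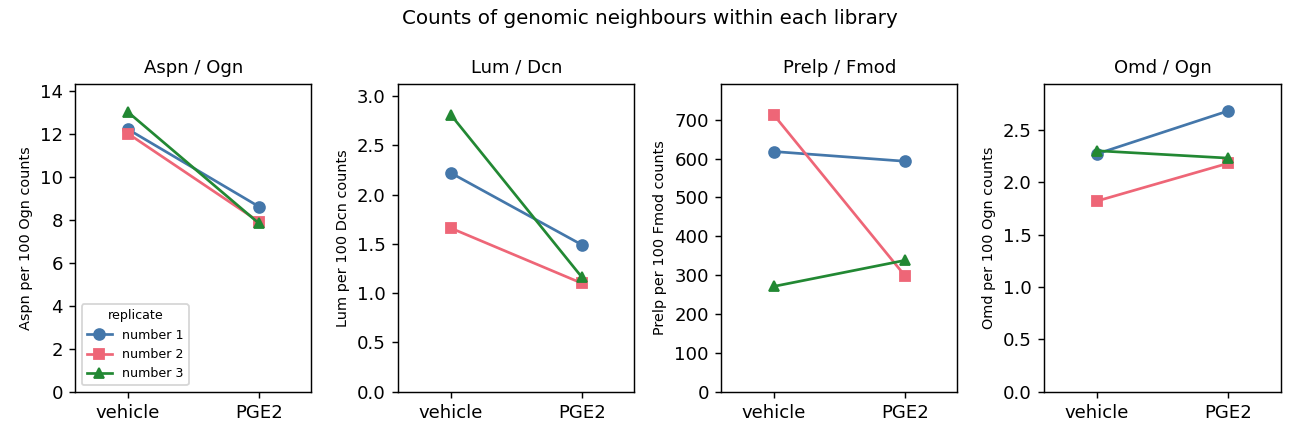
Panels plot counts of a member per 100 counts of a neighbour in the same genomic cluster (linear axes from 0) for vehicle and PGE2 libraries, with lines joining the same replicate number. Aspn to Ogn falls from 12 to 13 down to 7.82 to 8.6 and Lum to Dcn also separates the groups, while Prelp to Fmod and Omd to Ogn overlap.

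Promoter sequences from RefSeq (GRCm38.p6) were at hand for 8 of the 10 members, Dcn and Lum not among them. The 250 bases before the RefSeq start are shown for Aspn and Prelp, which moved alike (correlation of log2 CPM 0.984 over 6 libraries), and for Omd and Ogn, the neighbours of Aspn that did not pass. They span chr13:49544193-49544442 (+) for Aspn, chr1:133921402-133921651 (-) for Prelp, chr13:49582212-49582461 (+) for Omd and chr13:49607765-49608014 (+) for Ogn. RefSeq and GENCODE place some starts differently: the Prelp window overlaps the end of the GENCODE gene span given above, and the Ogn window stops short of the GENCODE start. Distances below are from the RefSeq start. Capitals mark matches on either strand to the TATA box (TATAAA) or the CCAAT box (CCAAT).
Aspn: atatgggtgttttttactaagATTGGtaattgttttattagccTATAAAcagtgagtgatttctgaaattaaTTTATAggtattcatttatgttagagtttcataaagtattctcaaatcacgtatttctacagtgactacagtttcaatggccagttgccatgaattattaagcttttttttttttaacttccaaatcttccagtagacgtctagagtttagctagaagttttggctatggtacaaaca
Prelp: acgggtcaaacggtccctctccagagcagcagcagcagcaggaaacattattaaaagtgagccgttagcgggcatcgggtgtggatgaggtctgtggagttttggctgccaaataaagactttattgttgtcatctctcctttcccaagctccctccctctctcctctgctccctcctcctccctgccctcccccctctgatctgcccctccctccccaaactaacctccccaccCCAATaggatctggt
Omd: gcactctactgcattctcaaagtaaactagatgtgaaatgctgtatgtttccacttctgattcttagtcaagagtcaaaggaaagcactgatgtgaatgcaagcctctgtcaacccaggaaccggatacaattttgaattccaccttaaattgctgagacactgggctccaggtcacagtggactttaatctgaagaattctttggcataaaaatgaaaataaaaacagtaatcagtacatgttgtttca
Ogn: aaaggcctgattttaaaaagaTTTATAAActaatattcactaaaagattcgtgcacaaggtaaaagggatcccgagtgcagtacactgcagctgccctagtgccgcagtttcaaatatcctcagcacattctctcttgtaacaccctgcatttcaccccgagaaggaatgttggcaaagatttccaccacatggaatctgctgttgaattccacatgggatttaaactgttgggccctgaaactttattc

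Aspn and Ogn each held 2 matches to TATAAA, at 207 and 178 bases before the start of Aspn and at 229 and 227 bases before that of Ogn; those of Ogn overlap each other. Prelp held CCAAT starting 15 bases before its start, and Aspn held it at 229 bases. Omd held neither. Among 32851 RefSeq promoter windows of this length, 12.4% held TATAAA and 33.8% CCAAT. The cyclic AMP response element TGACGTCA (1.55% of windows), its core TGACG (17.8%) and the AP-1 motif TGANTCA (6.75%) had no match in any of the windows of the 8 members. The lack of a match means only that these letters are not in these windows. A match means only that they are, and whether any match is in use was not tested.

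The other genes of the family had 0 of 5 tested past the threshold in either fit. Ecm2, the fourth gene of the chromosome 13 cluster, was at 4.3, 8.19 and 8.25 CPM in vehicle and at 4.26, 5.54 and 6.31 CPM in PGE2 libraries 1 to 3, a paired log2 fold change of -0.33 ± 0.138 (edgeR adjusted p = 0.139). Tsku, a secreted family member that binds growth factors, was the most abundant of them at 66.4 CPM in vehicle and 71.1 CPM in PGE2 libraries.

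Enzymes that build the sugar chains were compared in the same fits. Of 21 tested genes for the linker and for chondroitin and dermatan sulfate, 0 passed without pairing, and in the paired fit 6 rose and 0 fell, or 7 and 0 with the length correction. Csgalnact1, which starts the chondroitin chain on the linker, was at 156, 200 and 191 CPM in vehicle and at 254, 315 and 343 CPM in PGE2 libraries 1 to 3, groups that did not overlap. Its paired log2 fold change was 0.74 ± 0.0743 (edgeR adjusted p = 0.000246). The others were the linker enzyme B3gat3 (0.30), the chain-extending Chsy3 (0.57) and Chpf2 (0.34), and the sulfotransferases Chst11 (0.44) and Chst12 (0.34). With the length correction B3gat3 was at 0.17 and no longer passed (edgeR adjusted p = 0.0759), so the 7 did not include all of the 6. The median log2 fold change of the list was 0.0776, and genes such as Fam20b and Chsy1 were below 0, at -0.24 and -0.18, without being among the calls. Of 8 tested keratan sulfate genes 2 rose in the paired fit, B4galt1 (0.52 ± 0.0778), from 242, 281 and 256 to 330, 386 and 402 CPM in libraries 1 to 3, and Chst5 (1.64), which stayed at a mean of 1.25 CPM with PGE2.

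Proteases that process the family split, in a list that also held Pcolce, an enhancer of Bmp1 and not itself a protease. Of 10 tested, 0 passed without pairing, and in the paired fit 5 rose and 2 fell. Bmp1, which removes the propeptide of biglycan and osteoglycin, rose by 0.45 ± 0.0804 on the log2 scale, from 587 to 806 CPM on average (edgeR adjusted p = 0.0057). Pcolce (0.32), the stromelysin Mmp3 (0.59), the collagenase Mmp13 (1.38) and Adamts4 (0.41) rose, while the gelatinase Mmp2 (-0.31) and Adamts1 (-0.43) fell.

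Collagens that the members bind were lower where they passed in the paired fit. Of 13 tested, 0 passed without pairing and 5 fell in the paired fit, namely Col6a1 (-0.49), Col6a2 (-0.64) and Col6a3 (-0.86), chains of the microfibril that biglycan and decorin bind, with Col5a3 (-0.79) and Col2a1 (-0.61). With the length correction 5 fell and 4 rose, the latter being Col5a1, Col5a2, Col11a1 and Col12a1. Col1a1, the main fibril chain, was at 3100 and 3520 CPM on average and did not pass (0.09 ± 0.127; edgeR adjusted p = 0.681).

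Of 16 growth factors and receptors that bind family members, 0 passed without pairing, and in the paired fit 1 rose and 4 fell. Ctgf rose (0.41), and Tgfb2 (-0.99 ± 0.135), Bmp2 (-1.13), the hepatocyte growth factor receptor Met (-0.67) and the innate immune receptor Tlr4 (-0.34) fell. Tgfb2 was at 27, 41.1 and 36.6 CPM in vehicle and at 15.6, 15 and 22 CPM in PGE2 libraries 1 to 3. With the length correction 4 rose and 4 fell. Of 18 other proteoglycan genes tested, 0 passed without pairing, and in the paired fit the syndecans Sdc1 (0.32) and Sdc4 (0.39) rose and Gpc3 (-0.69), Gpc6 (-0.29) and Cspg4 (-0.84) fell, or 3 rose and 4 fell with the length correction. Cspg4 also belongs to the pericyte markers, of which 3 of 7 fell in the paired fit.

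Genes whose levels over the 6 libraries most resembled a member's were sought among 10683 others whose mean reached 5 CPM. Dermatopontin (Dpt) followed Dcn most closely (r = 0.998), with Fst (0.997) and Igfbp3 (0.996) next. Dpt was at 90.1, 138 and 227 CPM in vehicle and at 106, 162 and 228 CPM in PGE2 libraries 1 to 3. Vstm4 (0.999) and Gdf10 (0.995) were closest to Podn, Igdcc4 (0.997) to Prelp and Zfp677 (0.994) to Aspn. With 6 libraries that share groups and numbers, and this many genes, high values are common, and these are given as a description.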

How the data were processed

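Each of 6 libraries, 3 per group, was sequenced as paired ends of 100 bases, per the labels' protocols. The authors deposited raw counts, whole numbers for each Ensembl gene. Per the submitters' processing notes the genome was mm10. For the aligner, counter, strand setting and annotation, nothing is given in the sources used here.

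Counts were tested with edgeR 4.0.16 in R 4.3.3. Genes were kept by filterByExpr (15186), libraries were scaled by TMM, and PGE2 was compared with vehicle by the robust quasi-likelihood test, adjusted over all tested genes (Benjamini-Hochberg, threshold 0.05). Standard errors are the absolute log2 fold change divided by the square root of F. The replicate number was added as a block in the paired fit. The pairing comes from the data: same-numbered libraries correlated at 0.621, 0.169 and 0.422 in their deviations, above the limit of 0.1, though PGE2 library 2 correlated more with vehicle library 3 (0.253), and vehicle library 2 with PGE2 library 3 at 0.145. A matching that swaps numbers 2 and 3 would thus also exceed the limit; it was not fitted. For the length correction, a lowess trend (span 0.3) on the longest GENCODE transcript was added to the offset per library. Correlations between genes used log2 CPM with a prior count of 2. Alternatives were DESeq2 1.42.0, limma-voom (limma 3.58.1), other scalings and filters, and libraries or pairs left out. Ratios were tested with scipy 1.17.1. The unpaired and paired fits were also run on simulated counts. Those counts held no effect of replicate number or transcript length, so they cannot show how the fits handle either.

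The members and lists were chosen with earlier results of these data known. Named genes are all members, list genes past the threshold in either fit, up to 2 others per list, examples of the marker lists, and the 3 genes most alike to a member. Of 5 leukocyte markers 4 were in the table.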

Additional observations from a re-analysis of the deposited data

How the results depend on the processing

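Over all genes, 52 passed without pairing. The count was 2189 with the replicate block, 2549 with the block and the length correction, 15 with the length correction alone, 829 with DESeq2, 15 with limma-voom and 285 with no filter on low counts, and it lay between 0 and 120 with 1 library left out. It was 0 when library 2 or 3 of either group was dropped. The paired fit with 1 number left out gave 1372, 1160 and 5097.

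Of the members, 0 passed without pairing in all 6 fits with a library left out and under DESeq2, limma-voom, both other scalings, both other filters and the length correction. With the replicate block 3 passed, and 4 with the block and the length correction. With number 1, 2 or 3 left out of the paired fit 3, 2 and 3 passed. The 3 without number 3 were not the same members, with 2 lower and 1 higher. There Lum no longer passed and Dcn did, upward. Of the genes of the 7 lists other than cell type markers 0 passed without pairing, 30 with the replicate block and 41 with the block and the length correction. Aspn, Lum and Prelp kept a negative fold change and Bgn a positive one under every alternative run. With a library or number left out, Aspn ranged from -0.90 to -0.44, Lum from -1.05 to -0.14, Prelp from -0.65 to -0.31 and Bgn from 0.02 to 0.13, and the lowest size of Lum came without vehicle library 3. The cause of the other changes of sign was not tested. Ogn, near 0 at 0.01 without pairing, was -0.000038 with DESeq2, -0.0014 with RLE size factors, -0.041 with library totals alone, -0.047 with the length correction and -0.034 with the block and that correction. With a library or number left out, Ogn ranged from -0.25 to 0.20, Dcn from -0.11 to 0.50, Fmod from -0.55 to 0.51, Omd from -0.0903 to 0.38 and Podn from -0.22 to 0.57. With a number left out of the paired fit, Fmod was at 0.13 without number 3 and Ogn at -0.065 without number 1 and -0.058 without number 3. Depth limited Kera, at 1 to 6 counts.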
